A study of Mus musculus with 9 samples.

Results

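The genes of the complement cascade were followed in whole mouse oviduct, the duct in which fertilisation and the first cleavages take place. The list holds 33 genes, taken by symbol from the platform's annotation table. Of these, 30 had a probe set annotated with 1 gene symbol, C1s among them through its current symbol C1s1. C1rb was read on a probe set annotated with both C1rb and C1ra and is given apart, and no probe set used here was named for C3 or Cfd, so these 2 genes were not analysed here. The 30 stand beside 28214 probe sets in all, of which 21640 carried 1 symbol. The samples were 3 pools of oviducts from sexually immature CD1 females at day 21, 3 from mature CD1 females in estrus, the phase of mating and ovulation, and 3 from mature CD1 females in diestrus, when corpora lutea secrete progesterone. No group had received hormones, and each pool held tissue of 5 animals. The sources used here state no age for the mature females. Values are log2 intensities of 1 Affymetrix array for each pool.

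Complement is a set of plasma and cell-surface proteins that marks particles for uptake, calls in phagocytes and can open pores in membranes. C1q starts the classical pathway and lectins start the lectin pathway, each with its own serine proteases. Both cleave C4 and C2 into an enzyme that splits C3, the alternative pathway with factor B amplifies the split, and C5 to C9 build the pore. Liver makes most complement of blood, while macrophages make C1q and stromal and epithelial cells of many tissues make C1r, C1s, C4, C3, factor B and inhibitors locally. In the reproductive tract, membrane inhibitors such as CD55 and CD59 are known for shielding epithelium, and sperm carry CD46 on the acrosome.

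None of the 30 genes passed the test in any comparison. In diestrus, 25 of 30 mean values were higher than in estrus (background 46.9% of all probe sets) and 28 of 30 were higher than in immature oviduct (background 53.6%). The differences were small: the median over the 30 genes was 0.11 on the log2 scale for diestrus minus estrus and 0.09 for diestrus minus immature, against -0.01 and 0.01 over all probe sets. For estrus minus immature the median was -0.04, with 12 of 30 means higher in estrus (background 54.9%), so differences of both signs entered it. By role these medians ran from -0.17 for the regulators to 0.04 for the terminal genes. Between diestrus and estrus, C1ra, C4b, C7 and C3ar1 had the lowest p-values. For both mature stages averaged, 21 of 30 means were higher than in immature oviduct (background 54.3%).

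A gene was called when limma's test over all 28214 probe sets gave a Benjamini-Hochberg adjusted p under 0.05. By that rule 0 of 30 complement genes were called for diestrus minus estrus (background 0.159%), 0 for diestrus minus immature (background 1%), 0 for estrus minus immature (background 0.0851%) and 0 for both mature stages averaged against immature oviduct (background 0.432%). At an unadjusted p under 0.05, 7 of 30 were higher in diestrus than in estrus (background 3.85% higher, 9.33% in either direction) and 0 were lower (background 5.48%). The 7 were C1ra, C4b, C7, Cfb, C3ar1, Cd46 and Serping1. With array weights, an alternative that weighted estrus 3 by 8.16 and called 3331 probe sets in place of 45, 7 of 30 were called in that comparison: C1ra, C4b, C7, C9, Cfb, Cfi and Cd46. Against immature oviduct, C7, Cfb and Cfi were higher in diestrus at that level (3 of 30, background 4.44% higher and 13.4% in either direction), and 0 of 30 were lower (background 8.95%). In estrus against immature oviduct no complement gene reached it (background 2.25% higher, 4.27% lower and 6.52% in either direction), nor did one for both mature stages averaged (background 3.2% higher, 6.81% lower and 10% in either direction). The pairwise comparisons are not independent, since each group's arrays enter 2 of them.

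The intervals bound differences in log2 intensity, each for 1 gene at a time. Of the 30 genes, 16 lay below the array median on all 9 arrays (12815 of all 28214 probe sets). No background call accompanies them, so a narrow interval there need not bound a change in RNA. For estrus minus immature, all 30 intervals of 95% confidence lay within 2-fold in either direction, and 28 lay within 0.5 on the log2 scale. For diestrus minus immature the same numbers were 30 and 26. For diestrus minus estrus they were 29 and 23, and the exception to the first was C3ar1, whose interval reached 1.03. Precision is set by the 3 arrays per group: the median standard error of a difference was 0.09 for these genes. The p-values measure the spread between pools and not between single animals.

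**Figure D1:**
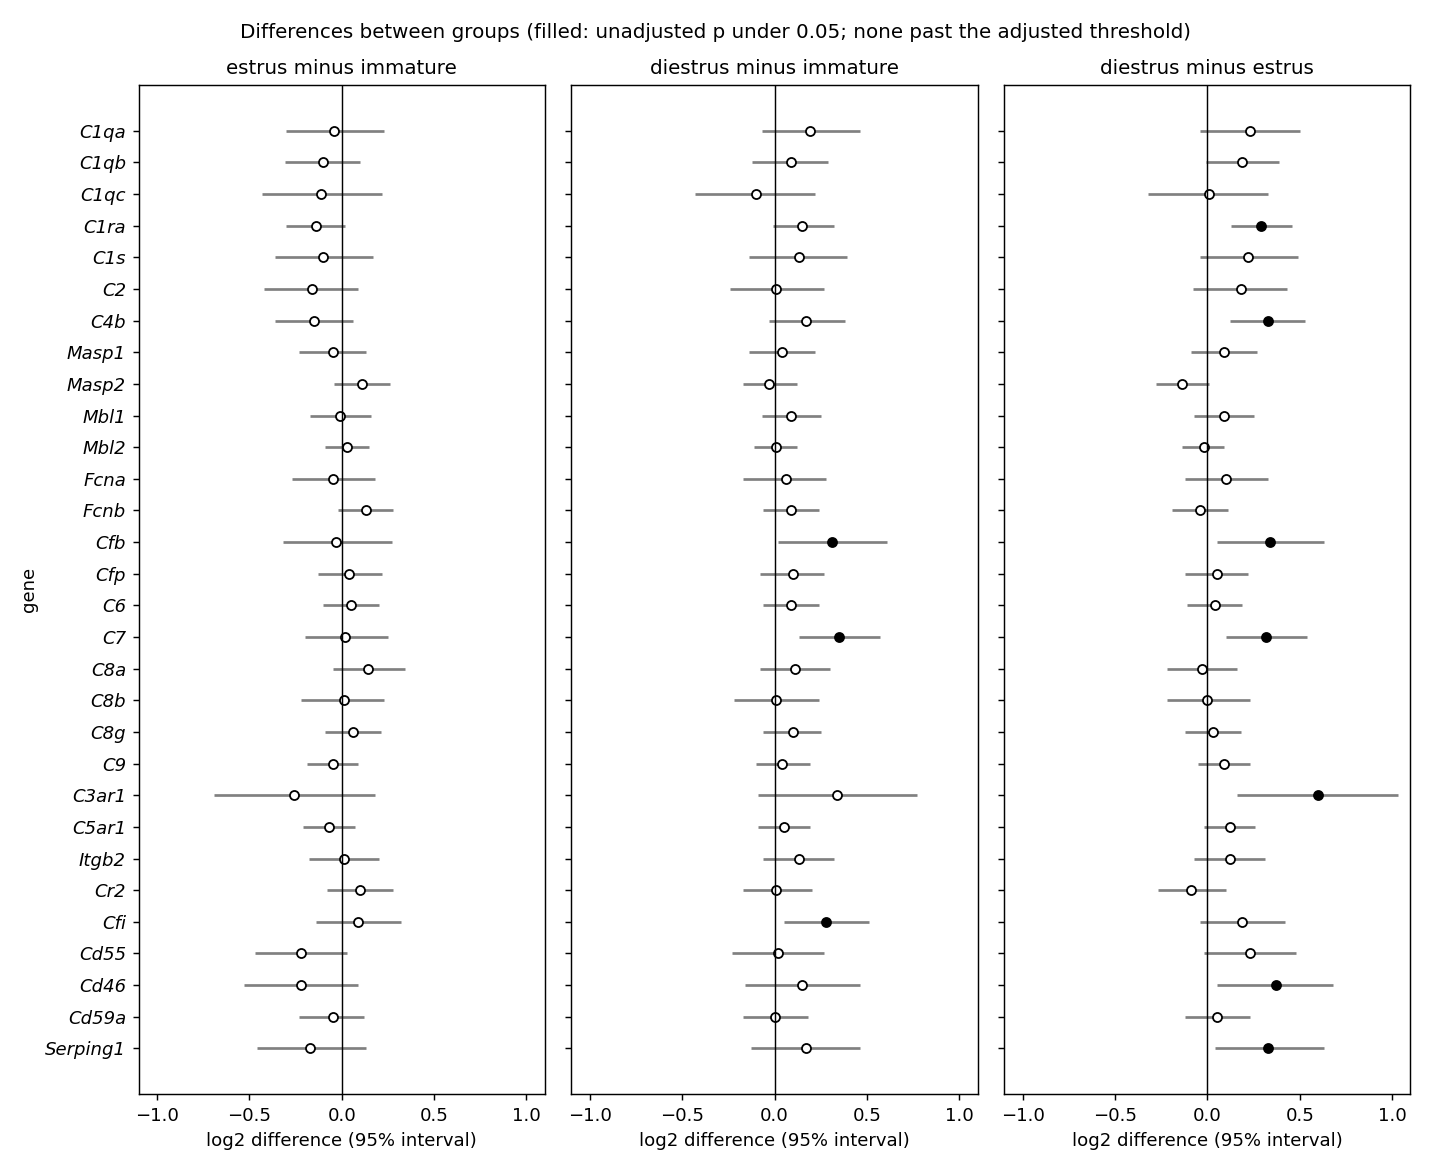
Log2 difference of each of the 30 complement genes (rows, ordered by role) in the 3 pairwise comparisons, with its 95% interval from limma. Filled points mark an unadjusted p under 0.05. In the right panel 25 of 30 points lie above 0, and C3ar1 has the widest interval of the 30 there.

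The arrays were alike in scale. Medians of the 9 arrays lay between 8.85 and 8.90 and interquartile ranges between 2.15 and 2.41, and no 2 arrays held identical values. In whole tissue, fewer cells of a type and less RNA per cell cannot be told apart. Epithelial markers fitted the labelled tissue: Pax8 of secretory cells stood between 11.76 and 12.23 and Foxj1 of ciliated cells between 10.98 and 11.67. Both were lowest on diestrus 3. The sum of 7 epithelial markers was 29232 on that array and 30845 to 34457 on the others, though Krt8, Krt18 and Cdh1 were not lowest there. Diestrus 3 also stood apart in markers of other cells. The sum of the intensities of 12 myeloid markers was 9905 on that array and between 6220 and 7551 on the immature and 6488 and 6606 on the estrus arrays, and 11 of the 12 had their highest value on it. The myeloid sums of diestrus 1 and 2, 7255 and 7610, were also above all 3 estrus sums, while immature 1 stood at 7551. Lyz2, the brightest of the 12, weighs most in such a sum. Of the 12, Lyz2, Ms4a7, Csf1r and Cd68 were higher on all 3 diestrus arrays than on the estrus arrays. Their differences were 0.64, 0.39, 0.38 and 0.36 (limma adjusted p = 0.197, 0.197, 0.321 and 0.281). The others of the list overlapped between diestrus and estrus. The list's median deviation from the 9-array mean was -0.01 on diestrus 1 and 0.02 on diestrus 2, against -0.13 to 0.01 in estrus. Markers of ovarian steroid-making and granulosa cells had sums of 8096 on immature 2 and 8733 on diestrus 2. The sum was 3506 on diestrus 3 and 1838 to 2385 on the remaining arrays. On diestrus 3, Cyp11a1 (9.21) and Hsd3b1 (8.51) of that list were above every estrus value, and Cyp17a1 (7.61) was below. Star of that list stood above the immature and estrus ranges on all 3 diestrus arrays, by 0.74 against immature oviduct (adjusted p = 0.0463) and 0.71 against estrus (adjusted p = 0.091). Sums over 7 stroma markers (35029) and 6 smooth muscle markers (34657) were highest on diestrus 3. On the immature and estrus arrays they were at most 27267 and 26413. None of these markers was at 0.

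Diestrus 3 also held the highest value of 14 of the 30 complement genes, where 10.9% of all probe sets had their highest value on that array. The 14 came from every role, with C1qa, C1qb, C1ra, C1s and C4b of the classical pathway, C7, Cfb, Cfp, C3ar1, C5ar1, Itgb2, Cd55, Serping1 and Fcna. Without diestrus 3, 23 of 30 means were higher in diestrus than in estrus (49.9% of all probe sets), with a median difference of 0.09. The genes higher at an unadjusted p under 0.05 were then 6 of 30 (3.97% of all probe sets): C1ra, C4b, C7, C3ar1 and Cd46 as before, and C2. Cfb and Serping1 were no longer among them. Against immature oviduct, 26 of 30 means were higher without diestrus 3 (54.4% of all probe sets), with a median difference of 0.07. At an unadjusted p under 0.05 (limma), 3 of 30 were then higher (4.74% of all probe sets): C7, C8g and Cfi. Diestrus 1 and 2, which stay in that fit, had myeloid sums above those of estrus, in which Lyz2 weighs most. The myeloid list's median deviations on them were -0.01 and 0.02, against -0.13 to 0.01 in estrus. Without immature 2 and diestrus 2, the arrays with the highest ovarian sums, the median differences were 0.11 in both comparisons with diestrus. In that fit 0 of 30 genes were called, and diestrus 3, with the next highest ovarian sum, was kept. The part of myeloid, stromal, muscle, epithelial and ovarian cells in these differences was not tested.

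**Figure D2:**
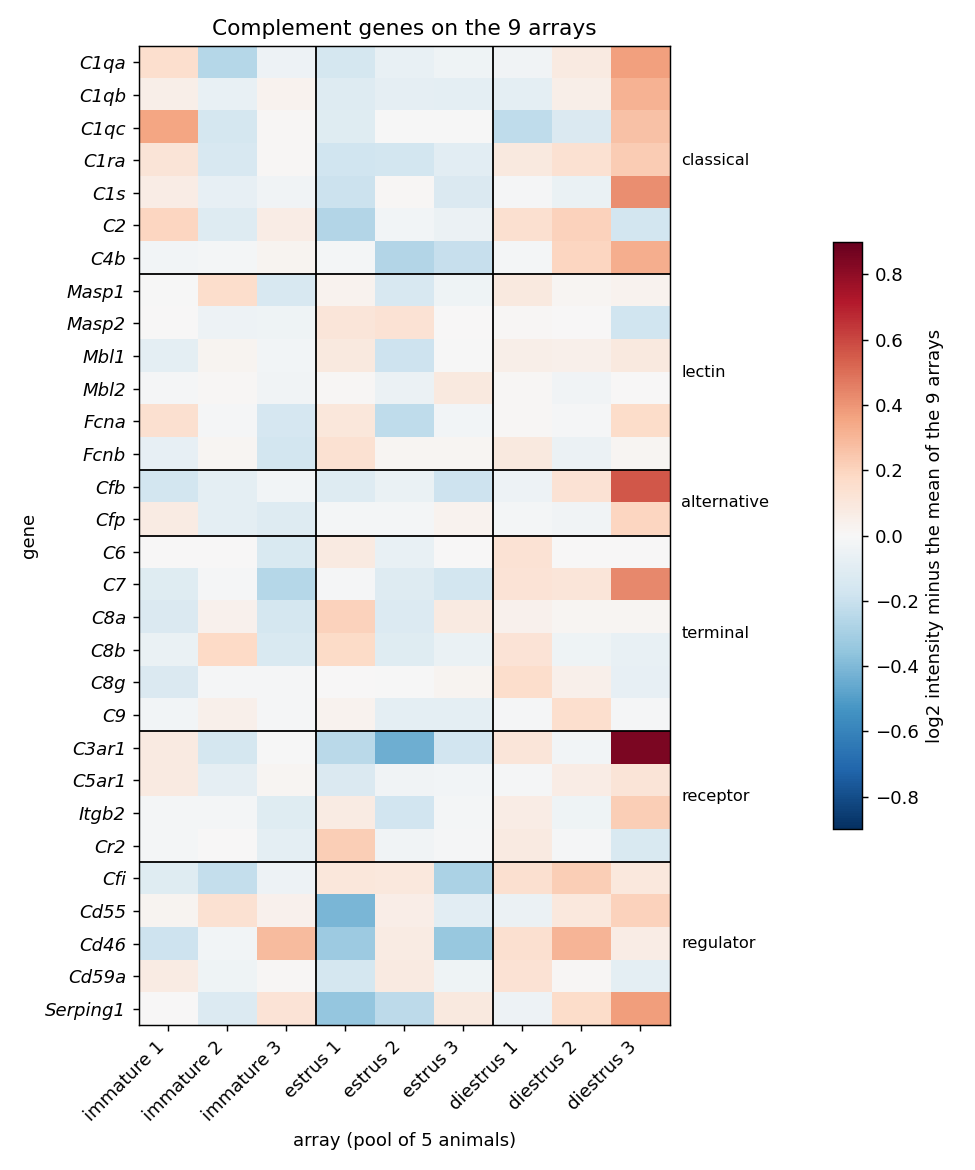
Log2 intensity of each complement gene (rows, by role) on each of the 9 arrays (columns), as the deviation from that gene's mean over the 9 arrays. Red is higher and blue lower. The column of diestrus 3 holds the highest value in 14 of 30 rows, C3ar1 and Cfb among them, while the lectin pathway rows are pale throughout.

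**Figure D3:**
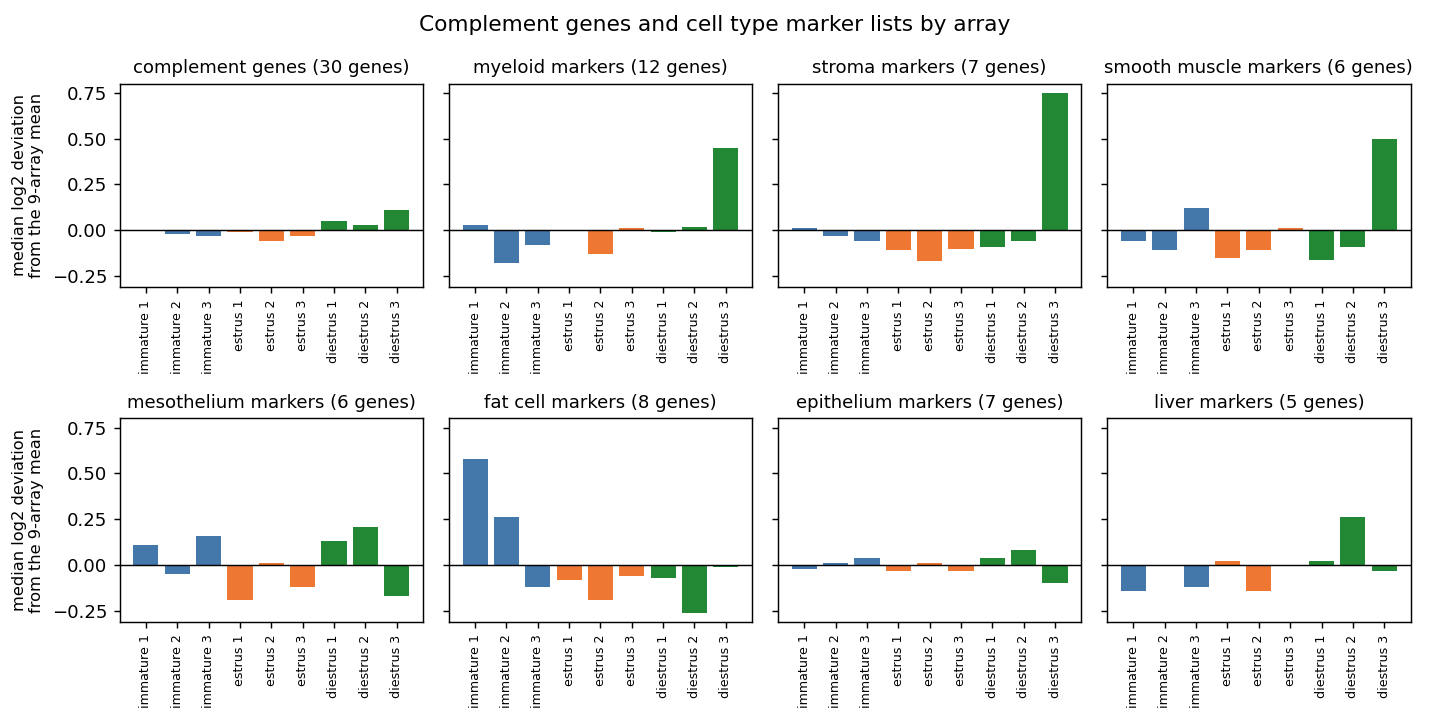
Median deviation from the 9-array mean on the log2 scale, for the 30 complement genes and 7 lists of cell type markers, by array (blue immature, orange estrus, green diestrus). The complement median was 0.11 on diestrus 3, 0.05 and 0.03 on the other diestrus arrays and at most 0 on the immature and estrus arrays, while the myeloid, stroma and smooth muscle lists stood at 0.45, 0.75 and 0.50 on diestrus 3.

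In the classical pathway, the 3 chains of C1q, the recognition protein that tissue macrophages produce, had unlike group differences. These were not tested against one another, and all 3 chains rose from diestrus 1 to diestrus 2 to diestrus 3. C1qb stood at 10.60, 10.48 and 10.58 on the immature arrays, 10.43, 10.47 and 10.46 in estrus and 10.46, 10.60 and 10.86 in diestrus. The 3 estrus values lay below the 3 immature ones, and diestrus overlapped both. The difference between diestrus and estrus was 0.19 ± 0.09 (SE; limma adjusted p = 0.584). C1qa ranged from 9.13 to 9.25 in estrus and from 9.26 to 9.66 in diestrus, so that the groups were apart by a narrow margin. It differed by 0.23 ± 0.12 (adjusted p = 0.636). C1qc stood at 9.33 and 9.43 on the first 2 diestrus arrays and 9.82 on diestrus 3, and its highest value, 9.91, was that of immature 1. Its diestrus minus estrus difference was 0.01 ± 0.14. Without diestrus 3 the 3 chains differed by 0.11, 0.08 and -0.14 for C1qa, C1qb and C1qc. All 3 genes lie on chromosome 4 next to one another.

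The proteases that C1q activates are C1r and C1s. C1ra stood at 8.46, 8.48 and 8.55 in estrus and at 8.73, 8.78 and 8.87 in diestrus, with 8.76, 8.50 and 8.65 in immature oviduct. All 3 diestrus values lay above all 3 estrus values, and the immature values spanned the gap between them. The difference from estrus to diestrus was 0.29 ± 0.07 (95% interval 0.13 to 0.46; limma adjusted p = 0.18), the lowest adjusted p of the 30 genes in that comparison. It was 0.26 without diestrus 3, and leaving out any 1 array gave 0.26 to 0.32. On every array C1ra was under the array's median, and no background call accompanies these values. The probe set shared by C1rb and C1ra gave 9.43, 9.66 and 9.76 in estrus and 9.86, 10.04 and 10.26 in diestrus, again without overlap, and differed by 0.44 ± 0.14 (adjusted p = 0.323). Because the 2 genes are near-identical copies, its signal cannot be assigned to either. C1s stood at 10.23, 10.18 and 10.66 in diestrus and between 10.05 and 10.25 in estrus. Its difference of 0.22 ± 0.12 (adjusted p = 0.65) was 0.07 without diestrus 3.

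C4b, whose product is cleaved by C1s and attaches to targets, was the other classical gene at an unadjusted p under 0.05. It stood at 9.37, 9.12 and 9.18 in estrus, at 9.37, 9.58 and 9.71 in diestrus and at 9.36, 9.37 and 9.41 in immature oviduct. The lowest diestrus value equalled the highest estrus value at 2 decimals, so the groups met. The difference was 0.33 ± 0.09 (95% interval 0.12 to 0.53; limma adjusted p = 0.248), and 0.25 without diestrus 3. Against immature oviduct C4b differed by 0.17 ± 0.09 in diestrus and by -0.15 in estrus (adjusted p = 0.468 and 0.843). C4b has a close copy, C4a, read here on a probe set of its own. C4a stood between 8.25 and 8.56 on all 9 arrays, and hybridisation of either transcript to the other's probes was not tested. C2, the protease that joins C4b, showed another order of arrays. It was lower on diestrus 3 (9.51) than on diestrus 1 and 2 (9.82 and 9.88), and ranged from 9.41 to 9.65 in estrus. Its difference was 0.18 with all arrays and 0.29 without diestrus 3 (adjusted p = 0.76 and 0.319). Over the 7 classical genes, 7 diestrus means were higher than in estrus and 0 of 7 estrus means were higher than in immature oviduct, with medians of 0.22 and -0.11.

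The lectin pathway showed the smallest spreads. Its recognition genes Mbl1, Mbl2, Fcna and Fcnb and the proteases Masp1 and Masp2 each spanned 0.14 to 0.39 over the 9 arrays, and all 6 lay below the median of each array, where a signal above background was not shown. Masp2 stood at 8.57, 8.52 and 8.53 in immature oviduct, 8.68, 8.70 and 8.57 in estrus and 8.58, 8.57 and 8.39 in diestrus. The estrus values were above the immature ones by a narrow margin, with a difference of 0.11 ± 0.07 (adjusted p = 0.837). Mbl1 had all 3 diestrus values above the immature ones, from 7.30 to 7.34 against 7.17 to 7.28, a difference of 0.09 ± 0.07 (adjusted p = 0.664). Median differences of the 6 genes were 0.01, 0.05 and 0.04 for estrus minus immature, diestrus minus immature and diestrus minus estrus.

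In the alternative pathway, Cfb encodes factor B, the protease of the amplifying C3 convertase. It stood at 9.27, 9.35 and 9.41 in immature oviduct, 9.32, 9.38 and 9.25 in estrus, and 9.39, 9.57 and 10 in diestrus. The diestrus values lay above those of estrus with no overlap, but 9.39 on diestrus 1 fell within the immature range, and diestrus 3 was the highest of all. Cfb differed by 0.34 ± 0.13 between diestrus and estrus and by 0.31 ± 0.13 between diestrus and immature oviduct (limma adjusted p = 0.431 and 0.339). Without diestrus 3 these differences were 0.17 and 0.14. Cfp, the gene of properdin, which stabilises that convertase, varied less, from 9.16 to 9.47, with differences of 0.05 for diestrus minus estrus and 0.04 for estrus minus immature.

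Of the terminal components, which build the membrane pore, C7 had diestrus apart from both other groups. It stood at 7.82, 7.92 and 7.67 in immature oviduct, 7.92, 7.81 and 7.76 in estrus, and 8.05, 8.04 and 8.36 in diestrus. All 3 diestrus arrays lay above the other 6. The difference was 0.35 ± 0.10 against immature oviduct (95% interval 0.13 to 0.57; limma adjusted p = 0.158) and 0.32 ± 0.10 against estrus (95% interval 0.10 to 0.54; adjusted p = 0.29). Without diestrus 3 these were 0.24 and 0.22. Against immature oviduct the adjusted p of C7 was the lowest of the 30 genes. On every array C7 was under the array's median, and no background call accompanies these values. The other 5 pore genes, C6, C8a, C8b, C8g and C9, spanned 0.24 to 0.37 over the 9 arrays and were also below the median of each array. C8g, the lipocalin-type chain of C8, stood at 8.23, 8.35 and 8.35 in immature oviduct, 8.37, 8.36 and 8.39 in estrus and 8.52, 8.41 and 8.29 in diestrus. Its estrus values were above the immature ones by a narrow margin, and the difference was 0.06 ± 0.07 (adjusted p = 0.881).

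Among the receptors, C3ar1 encodes the receptor of the C3a fragment, which myeloid cells carry. It stood at 8.78, 8.58 and 8.85 in estrus, 9.13, 9.00 and 9.87 in diestrus and 9.10, 8.86 and 9.02 in immature oviduct. The estrus arrays were the lowest 3 of the 9, diestrus 3 was the highest, and diestrus 1 and 2 lay near the immature arrays. C3ar1 had the largest difference of the 30 genes, 0.60 ± 0.19 between diestrus and estrus (1.51-fold, 95% interval 0.16 to 1.03 on the log2 scale; limma adjusted p = 0.323), and 0.33 ± 0.10 without diestrus 3. The estrus minus immature difference was -0.26 with an interval of -0.69 to 0.18. On diestrus 3, where C3ar1 was highest, the macrophage gene Adgre1 stood at 9.66 against at most 8.85 elsewhere. Csf1r stood at 9.63 against at most 9.28 and Mrc1 at 9.71 against at most 9.23. The stroma gene Pdgfra (10.78 against at most 9.72) and the smooth muscle gene Myh11 (12.33 against at most 11.42) were highest there too. Which cells carried the C3ar1 signal was not tested. C5ar1, the receptor of C5a, ranged from 7.89 to 8 in estrus and 8.01 to 8.14 in diestrus, without overlap by a narrow margin. It differed by 0.12 ± 0.06 (adjusted p = 0.653) and was under the array's median on every array. Itgb2, the beta chain of the integrin receptors for fragments of C3, was highest on diestrus 3 (8.64) and differed by 0.12. Cr2, the receptor of B cells and follicular dendritic cells, was in the range below the lower quartile on every array, as were C6, C9 and Mbl1.

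The regulators include Serping1, the C1 inhibitor that stops C1r and C1s. It stood at 11.73, 11.84 and 12.16 in estrus, 12.03, 12.24 and 12.45 in diestrus and 12.08, 11.95 and 12.20 in immature oviduct. The groups overlapped, since estrus 3 lay above diestrus 1. The difference between diestrus and estrus was 0.33 ± 0.13 (limma adjusted p = 0.446), 0.23 without diestrus 3 and 0.08 with array weights. Cd46, the cofactor for cleavage of C3b, stood at 8.27, 8.67 and 8.25 in estrus, 8.74, 8.90 and 8.66 in diestrus and 8.41, 8.57 and 8.88 in immature oviduct. Here estrus 2 was apart from the other estrus arrays and lay within the diestrus range. Cd46 differed by 0.37 ± 0.14 (adjusted p = 0.424), and by 0.42 without diestrus 3, where it was not highest. Its signal was above the array's median on 2 of the 9 arrays. Cfi, the protease that cleaves C3b and C4b, stood at 8.76, 8.65 and 8.82 in immature oviduct, 8.97, 8.96 and 8.58 in estrus and 9.01, 9.09 and 8.96 in diestrus. All diestrus values lay above the immature ones, with a difference of 0.28 ± 0.10 (adjusted p = 0.276), and the estrus arrays were split between the 2 ranges. The difference was 0.31 without diestrus 3. Cd55, which dissolves C3 convertases, was lowest on estrus 1 (9.83, against at least 10.15 on the other 8) and differed by -0.22 ± 0.11 between estrus and immature oviduct (adjusted p = 0.816). Cd59a, the inhibitor of the pore, stood between 11.20 and 11.49 on all arrays with differences of -0.05, 0 and 0.05 in the 3 comparisons.

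**Figure D4:**
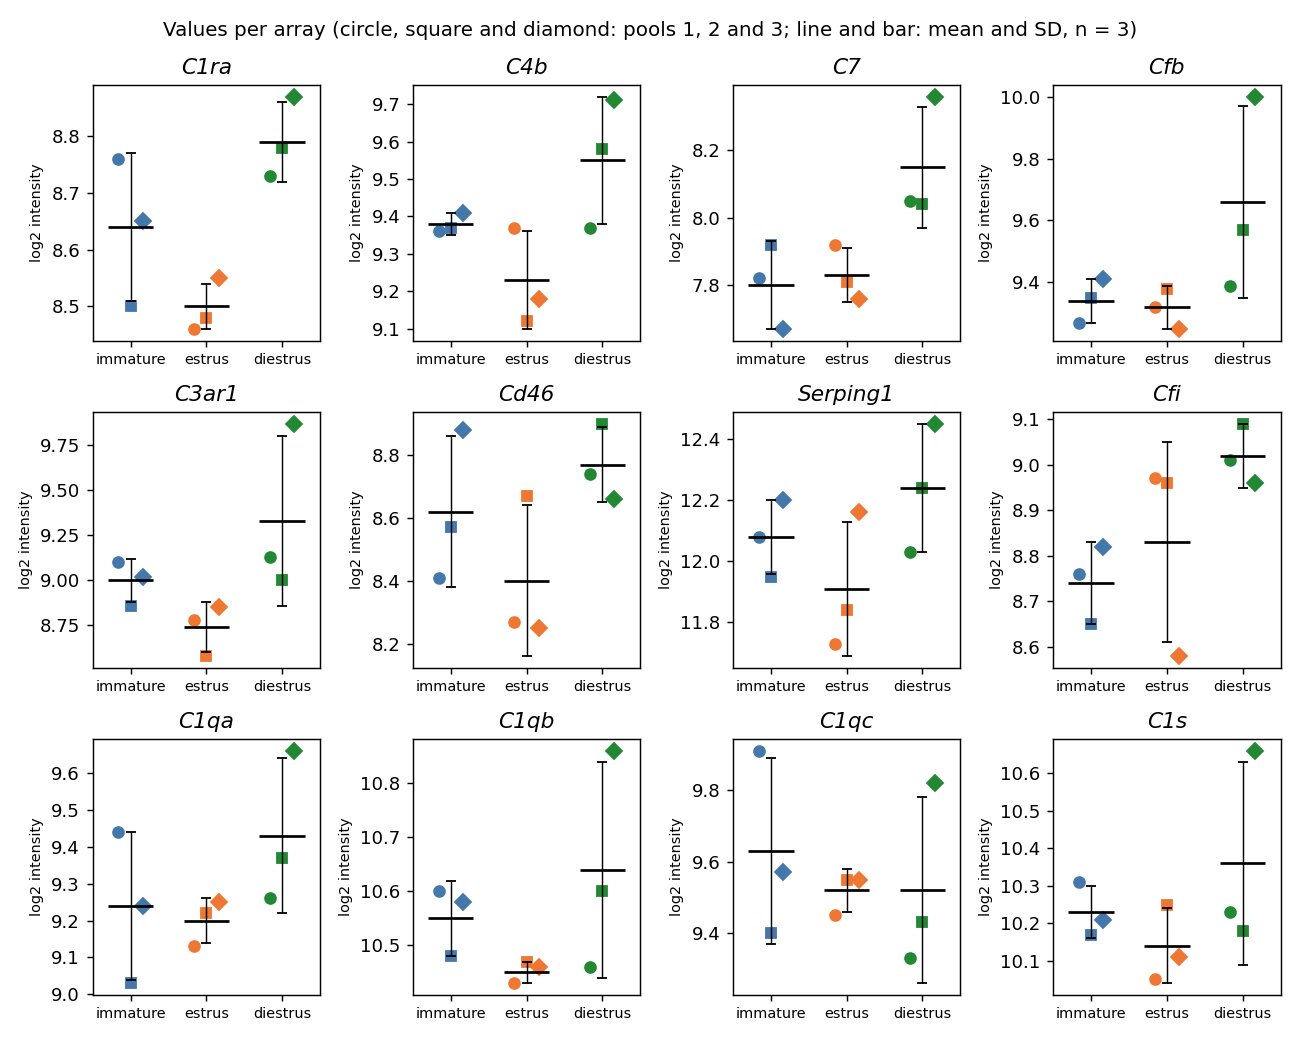
Log2 intensity of 12 complement genes on the 9 arrays. Circles, squares and diamonds are pools 1, 2 and 3 of each group, long lines are means and bars are the SD (n = 3). Each vertical axis has its own range. C1ra, C7, Cfb, C3ar1 and C1qa have no overlap between estrus and diestrus, and the diamond of diestrus 3 is the highest point of 9 of the 12 panels.

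Without overlap between the arrays of both groups, 6 of 30 genes were higher in diestrus than in estrus (C1qa, C1ra, C7, Cfb, C3ar1 and C5ar1; background 4.93%) and 0 were lower (background 6.85%). Against immature oviduct, 3 were higher in diestrus without overlap (C7, Cfi and Mbl1; background 7.52%) and 0 lower (background 10.9%). In estrus, C8g and Masp2 were higher than in immature oviduct without overlap (2 of 30, background 3.19%), and C1qb and C3ar1 were lower (2 of 30, background 6.62%). For both mature stages averaged, 0 of 30 were higher (background 1.4%) and 0 lower (background 3.18%) without overlap.

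RefSeq's promoter table (GRCm38.p6) held 22 of the 30 genes. For 3 genes that were higher in diestrus than in estrus at an unadjusted p under 0.05 with no overlap, the 250 bases before the annotated start are shown because they are the sequence in which regulators of these genes could be sought:
C1ra, chr6:124512371-124512620, plus strand: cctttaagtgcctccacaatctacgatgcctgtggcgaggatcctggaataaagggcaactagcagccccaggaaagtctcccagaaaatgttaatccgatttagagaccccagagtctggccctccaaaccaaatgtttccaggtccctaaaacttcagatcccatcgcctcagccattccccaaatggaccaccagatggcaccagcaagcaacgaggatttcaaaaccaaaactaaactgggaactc
C7, chr15:5063774-5064023, minus strand: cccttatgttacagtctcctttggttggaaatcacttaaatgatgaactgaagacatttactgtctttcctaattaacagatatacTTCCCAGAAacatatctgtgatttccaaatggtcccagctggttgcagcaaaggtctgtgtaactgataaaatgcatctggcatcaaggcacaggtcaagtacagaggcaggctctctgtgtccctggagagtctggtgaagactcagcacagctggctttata
C3ar1, chr6:122856158-122856407, minus strand: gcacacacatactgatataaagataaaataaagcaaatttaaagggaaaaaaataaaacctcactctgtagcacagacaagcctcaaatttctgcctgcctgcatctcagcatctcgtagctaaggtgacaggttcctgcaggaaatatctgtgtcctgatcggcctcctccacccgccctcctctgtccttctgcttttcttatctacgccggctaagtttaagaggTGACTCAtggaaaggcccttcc
Capitals mark matches, on either strand, to GAGGAA (a PU.1 site), TTCNNNGAA (STAT), TGANTCA (AP-1) or the full estrogen response element. Other Ets sites were not searched. The capitals in C7 are a STAT match 164 bases before the start, and those in C3ar1 an AP-1 match 22 bases before it, while C1ra had no match to the 4 motifs in this window. Of all 32851 windows of this length, 23.3% held GAGGAA, 7.02% the STAT motif, 6.75% the AP-1 motif and 0.0639% the estrogen response element. Among the 22 complement genes the numbers were 4, 3, 2 and 0. No 2 motifs overlapped in the 3 windows shown.

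Of 31 other genes of the pathway, 27 had a probe set of 1 symbol. Clu, whose product clusterin keeps the pore complex out of membranes, was the 1 gene of these 27 that passed the test. It did so for diestrus minus immature, where 1% of all probe sets were called. It stood at 11.46, 11.54 and 11.64 in immature oviduct, 11.43, 11.72 and 11.46 in estrus and 12, 12.39 and 12.15 in diestrus, and the 3 diestrus arrays were above the other 6. Clu rose by 0.64 ± 0.11 from immature oviduct to diestrus (limma adjusted p = 0.0356), while the difference from estrus was 0.64 ± 0.11 with an adjusted p of 0.0705. The call ended without immature 1, 2 or 3 (adjusted p = 0.123, 0.124 and 0.0936), without estrus 1 or 3 (0.0558 and 0.058) and without diestrus 2 (0.103), and the difference then stood between 0.53 and 0.68. It also ended when the compared arrays were fitted alone (0.0791), without immature 2 and diestrus 2 together (0.289) and at the stricter threshold of 0.01. Clu was called in 12 of 21 alternatives, this threshold counted as 1 of them. Without diestrus 3 the difference was 0.65 (adjusted p = 0.0438). Susd4, a membrane regulator of C3 convertases, stood at 9.36 to 9.53 in immature oviduct, 9.15 to 9.25 in estrus and 9.11 to 9.22 in diestrus, so that both mature groups lay below the immature one. Its differences from immature oviduct were -0.21 ± 0.06 in estrus and -0.24 ± 0.06 in diestrus (adjusted p = 0.515 and 0.132). Cd55b, the second gene for a CD55 protein in mice, differed by -0.23 ± 0.08 in estrus, and its lowest value was that of estrus 1 (7.73). Itgam, the alpha chain that pairs with Itgb2, and Cfhr3 differed by 0.17 ± 0.08 and 0.14 ± 0.06 between diestrus and immature oviduct (adjusted p = 0.37 and 0.365). At an unadjusted p under 0.05 the counts among the 27 were 0 higher and 2 lower for estrus minus immature (background 2.25% and 4.27%). They were 3 higher and 1 lower for diestrus minus immature (background 4.44% and 8.95%) and 1 higher and 0 lower for diestrus minus estrus (background 3.85% and 5.48%). The gene of C5, Hc, stood between 7.31 and 7.62 on all 9 arrays.

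Markers of liver, the main source of complement in blood, were measured beside these genes. The sum of 5 liver markers was 1904 on diestrus 2 and at most 1301 on the immature and estrus arrays, and Alb reached 9.32 on that array against 7.42 to 7.68 elsewhere. The other liver markers differed less there, with Ttr at 7.64 against at most 7.53 elsewhere. Of the complement genes, C2 (9.88), Cfi (9.09), Cd46 (8.90) and C9 (6.50) had their highest value on diestrus 2. These were 4 of 30, where 7.9% of all probe sets had their highest value on that array. Diestrus 2 also had the highest sums of ovarian, mesothelium and epithelium markers. The part of liver RNA was not tested. Fat cell markers were highest on immature 1, with a sum of 4430 against at most 2778 in the mature groups. Mesothelium markers ranged from 12688 to 16657 with overlap of all 3 groups. Neutrophil and B cell markers had sums of at most 1884 and 1404 with overlap of the groups.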

How the data were processed

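RNA of whole oviduct was measured on 9 arrays in 3 groups of 3. The values are log2 intensities as the authors deposited them, made with RMA in Affymetrix Expression Console per the submitters' processing notes, that is, background-corrected, quantile-normalized between arrays and summarised by probe set. The sources used here give no software versions, genome build or array dates. The base of the logarithm was taken from the range of the values.

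The platform annotation gave 1 symbol for 21640 probe sets, several for 1321 and none for 5253, and C1s was matched to C1s1 through RefSeq. Where a gene had several probe sets of 1 symbol, the one with the highest mean stood for it. All 28214 probe sets were fitted together in limma 3.58.1 (R 4.3.3; lmFit and eBayes, two-sided; 6 residual and 3.60 prior degrees of freedom), with Benjamini-Hochberg adjustment over all of them. Python 3.11.15 with pandas 2.3.3 and matplotlib 3.10.9 made tables and plots.

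The members, lists and tests were chosen with earlier results of these data known. Values of every array are given for members at an unadjusted p under 0.05 in a pairwise comparison and for the member of highest mean in each role. C1qa, C1qc, C1s, C2, C5ar1, Mbl1 and other members were added after their values were seen. Alternatives were: a replicate block; dropping dim probe sets; testing 1-symbol probe sets alone; repeated quantile normalization, median centring or cyclic loess; a robust trended prior; weighting arrays; fitting each comparison's own arrays; a stricter threshold of 0.01; averaging a gene's probe sets; and leaving out each array. Leaving out immature 2 and diestrus 2 together was added after seeing the data. Replicate numbers did not pair the arrays: correlations of same-numbered arrays' deviations from their group means ran from -0.29 to 0.17. The fit was tested on simulated data.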

Additional observations from a re-analysis of the deposited data

How the results depend on the processing

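Complement genes called numbered 0 in 82 of 83 settings over the 4 comparisons. The exception was array weights for diestrus minus estrus, with 7 called (C1ra, C4b, C7, C9, Cfb, Cfi and Cd46) and a median difference of 0.08 in place of 0.11. That fit gave estrus 3 a weight of 8.16 and the other arrays 0.325 to 2.16, and it called 3331 probe sets in all against 45. The adjusted p over the alternatives ran from 0.0204 to 0.498 for C1ra, 0.00754 to 0.759 for C4b, 0.0132 to 0.564 for C7, 0.0333 to 0.824 for Cfb and 0.00602 to 0.948 for Cd46. With the filter on low intensity, which kept 13 of the 30 genes, the median differences were -0.10, 0.13 and 0.22 for estrus minus immature, diestrus minus immature and diestrus minus estrus, against -0.04, 0.09 and 0.11. Leaving out 1 array at a time gave medians of -0.05 to -0.02, 0.07 to 0.10 and 0.09 to 0.13 in these comparisons and 0.01 to 0.05 for both mature stages minus immature (0.02 with all arrays). The replicate block left 0 of 30 called in each comparison, and with it 4, 121 and 13 probe sets in all were called for the 3 pairwise comparisons, against 24, 282 and 45. Leaving out immature 2 and diestrus 2 together, the arrays with the highest ovarian sums and chosen after seeing the data, also left 0 called. No difference of a named complement gene at an unadjusted p under 0.05 changed sign under these alternatives. Over all probe sets, array weights called 1023, 1288 and 3331 in the pairwise comparisons (in the order given above), cyclic loess 5 in the first, the intensity filter 131 in the third, 1-symbol probe sets alone 12 in the first and 91 in the third, gene means 11 and 110 there, and fitting the compared arrays alone 85 in the second and 0 in the third (limma; 2256 at an unadjusted p under 0.05). Leaving out immature 2 and diestrus 2 together gave 2, 10 and 0 (1702 unadjusted in the third). Leaving out 1 array gave 1 to 95, 41 to 533 and 1 to 105. The causes were not tested. Fewer arrays and the lack of a background call limit what the low-intensity genes can show, C1ra and the lectin and pore genes among them.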
